A study of Mus musculus with 8 samples.

Results

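Cish and Socs1 to Socs7 are the 8 genes of the mouse SOCS family, the suppressors of cytokine signaling. They were chosen by gene name, and each of the 8 names was found once among the 47493 genes of the table. The transcriptome was read from endogenous CD8+ T cells of tumor-bearing mice that had received adoptive T-cell therapy. The cells of each mouse were split into a fraction rich in the α chain of the interleukin-18 receptor (IL-18Rαhi) and the cells that remained, so the family could be compared between the fractions of 4 mice.

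All 4 mice were female C57BL/6 animals of 6 to 8 weeks and went through the same regimen, so no library came from an untreated animal. They received 200000 B16F10 melanoma cells in the skin on day 0, cyclophosphamide at 300 mg/kg on day 3 and 2000000 Thy1.1+ Pmel-1 cells, CD8+ T cells with a transgenic receptor for a melanoma antigen, on day 5. Recombinant human IL-2 was given from day 5 at 10000 IU a day for 3 days, and an antibody against CD4 was given weekly from day 10, 200 μg each time, for 3 weeks. On day 25 the inguinal lymph nodes and spleen of each mouse were combined, a CD8 isolation kit and Thy1.1 beads left the host's own Thy1.1-negative CD8+ T cells, and an IL-18Rα antibody with magnetic beads held back the IL-18Rαhi cells. The flow-through of that column was the control. It is a remainder and not a sorted IL-18Rα-low population, and the antibody that selected the other fraction had bound its target on those cells before lysis.

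SOCS proteins are a classical negative feedback on cytokine receptors. A cytokine activates receptor-bound JAK kinases, these phosphorylate STAT transcription factors, and the STATs switch on SOCS genes, whose products bind the receptor or the kinase through an SH2 domain. Through the SOCS box they recruit elongins and a cullin ubiquitin ligase, which marks the bound protein for degradation, and SOCS1 and SOCS3 also block the kinase itself. In T cells, CIS, the product of Cish, and SOCS2 are textbook targets of STAT5 downstream of IL-2 family cytokines, SOCS1 restrains interferon and IL-2 family signals, and SOCS3 restrains signals through gp130 and the IL-12 receptor. SOCS4 to SOCS7 are less studied in T cells, and some of them have been tied to growth factor receptors.

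The letters that STAT factors are known to recognize were looked for near the start of these genes, because Cish, Socs2 and Socs3 are known STAT targets. RefSeq promoter windows, which run from 250 bases before to 50 bases after a gene's start on GRCm38.p6 (mm10), were at hand for 4 of the 8 members, Cish, Socs1, Socs3 and Socs4. The motif TTCNNNGAA, which reads the same on both strands, was in the windows of 2 of these, Cish and Socs3. The stretches are printed 5′ to 3′ on the gene's strand with the matches in capitals.
Cish, chr9:107296654-107296683, plus strand: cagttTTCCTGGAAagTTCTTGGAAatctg
Socs3, chr11:117969502-117969530, minus strand: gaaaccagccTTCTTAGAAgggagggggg
In Cish the matches covered bases 1 to 9 and 12 to 20 counted from the RefSeq start, within an exon of the transcript Cish-201. In Socs3 the match covered positions -154 to -146 against the start, in an intron of the longer transcript Socs3-202. Of all 32851 mouse windows of 300 bases, 2726 (8.3%) held the motif at least once and 150 (0.457%) held it at least 2 times. The related motif with 4 bases between TTC and GAA, searched in the same way, was in 2284 windows (6.95%) and in none of the 4 members' windows. A match describes letters and not a bound site.

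Levels are in FPKM, fragments scaled to transcript length and library depth, so they can be compared between genes. An estimated 14800000 to 17800000 fragments stood behind each library, and 11706 to 12288 genes reached 1 FPKM. Il18r1, which encodes the selected receptor chain, lay between 22.2 and 37.2 FPKM in flow-through libraries and between 107 and 116 FPKM in IL-18Rαhi libraries. Cd8a, a defining marker of the labelled cells, reached 179 FPKM in mouse 1's flow-through library and 297 to 385 FPKM in the other 7. That 1 library stood apart: 8 genes of CD8 T-cell identity summed to 1337 FPKM there and to 2144 to 2724 FPKM elsewhere. Its sum over 8 erythroid progenitor genes, 2231 FPKM, was the highest, where the rest of the flow-through ran from 844 to 1227 FPKM. Values without it are given where they matter.

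Of the 8 members, 2 were higher in the IL-18Rαhi fraction, Cish and Socs2, none was lower, and 6 did not pass the test (limma on log2(FPKM + 1), Benjamini-Hochberg adjusted p under 0.05 over the 12166 genes that averaged 1 FPKM or more). All 8 members passed that filter. The 2 called members are 25% of the family, and 27.8% of all tested genes were called, 14.1% higher and 13.7% lower, so the number called does not set the family apart. Its median log2 fold change was 0.04 and that of all tested genes was -0.02. With the mouse as a block, which uses that both fractions came from the same animals, Socs3 was called lower as well, while the share of called genes rose to 44.9%. The groups of 4 did not overlap for 2 members, both higher, and 16.4% of tested genes were higher without overlap and 15.9% lower. In bulk libraries, fewer cells of a type and less RNA per cell cannot be told apart, and this holds for every difference that follows.

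**Figure D1:**
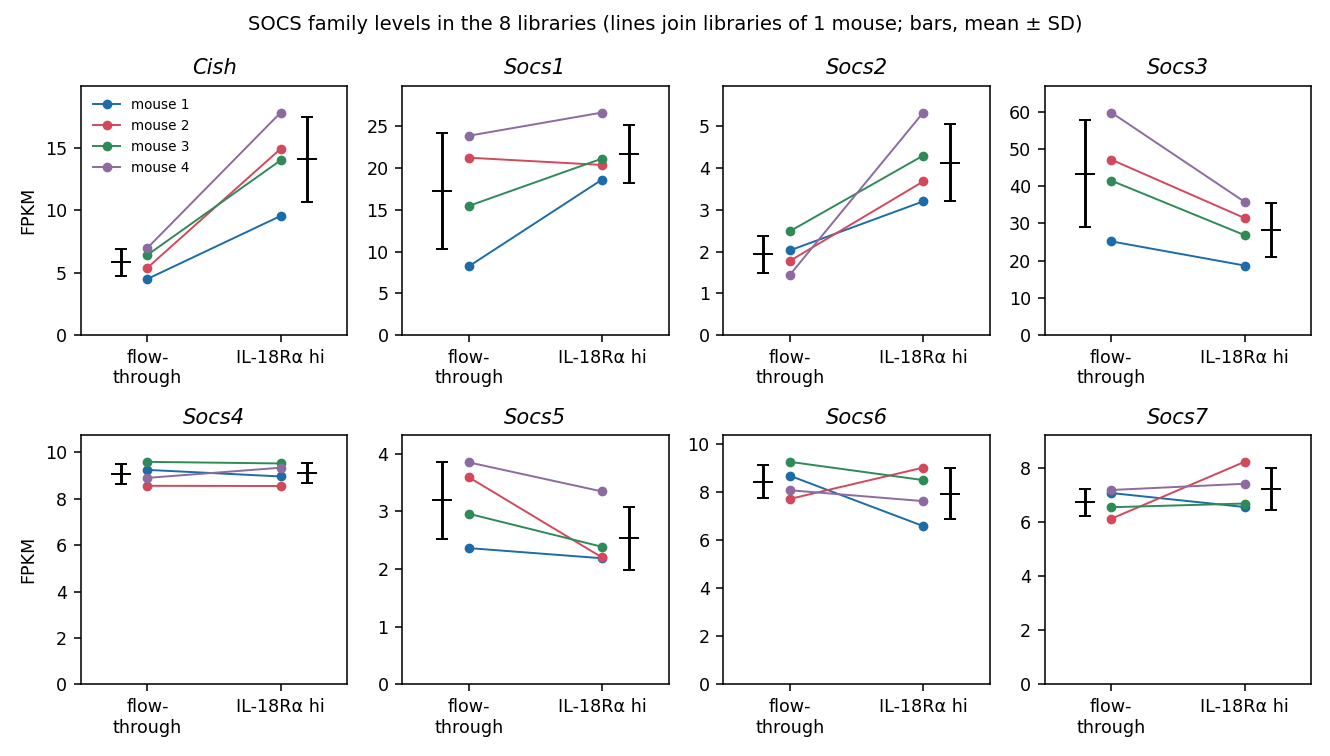
FPKM of each SOCS family gene in the flow-through and IL-18Rαhi fractions, 1 panel per gene with its own axis from 0. Points are libraries, lines join the libraries of 1 mouse, and bars give the mean ± SD of 4. The Cish and Socs2 points separate completely, and all 4 Socs3 lines run downward although the groups overlap.

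Cish (ENSMUSG00000032578, mm10 chromosome 9, 107296026 to 107302784, plus strand) encodes CIS, which acts at the IL-2 receptor and the T-cell receptor. In the flow-through libraries of mice 1 to 4 its level was 4.49, 5.38, 6.41 and 6.97 FPKM. In their IL-18Rαhi libraries it was 9.53, 14.9, 14.0 and 17.8 FPKM, so that the lowest enriched library lay above the highest flow-through library. The means were 5.82 ± 1.10 and 14.1 ± 3.43 FPKM (SD, n = 4), a ratio of 2.42. The log2 fold change on the FPKM + 1 scale was 1.13 (SE 0.19, 95% interval 0.70 to 1.56, limma adjusted p = 0.00453). Within mice the ratio was 2.12, 2.77, 2.18 and 2.55, higher in 4 of 4, as it was for 29.2% of tested genes. An exact two-sided permutation test of the 70 arrangements gave p = 0.0286, the smallest that 4 against 4 libraries allow. That test ignores the pairing by mouse. An exact sign-flip test of the within-mouse differences keeps the pairing and gave p = 0.125, the smallest it allows.

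The Cish difference was 1.03 without the flow-through library of mouse 1 (limma adjusted p = 0.00709), and it passed the test in each of the 20 alternatives that were run. Its margin was narrowest without mouse 3 in both fractions, where the difference was 1.165 (limma adjusted p = 0.0489). When each library was scaled to its CD8 T-cell identity genes, here called T-cell scaling, the median of all tested genes moved to -0.32. Cish was then at 0.83, which is 1.15 above that median (limma adjusted p = 0.0391). With that scaling Cish was the 1 member called higher and Socs3 the 1 called lower, where 4.29% of tested genes were higher and 7.62% lower. The level of Cish carries an uncertainty from its locus. An antisense gene, Gm17041, shares 479 exon bases with it with average levels of 3.44 and 8.60 FPKM in flow-through and IL-18Rαhi libraries, and the quantification as described did not use the strand. In the shared bases, reads of the pair cannot be told apart in these values. How much of the Cish level such reads make up is not known.

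Socs2 (ENSMUSG00000020027, chromosome 10, 95385362 to 95417180, minus strand) encodes a SOCS protein best known for restraining growth hormone signals. It had the lowest mean level of the family in the flow-through, at 2.03, 1.78, 2.49 and 1.45 FPKM in mice 1 to 4. The IL-18Rαhi libraries held 3.20, 3.68, 4.30 and 5.33 FPKM, again without overlap. The means were 1.94 ± 0.44 and 4.13 ± 0.92 FPKM (SD, n = 4), a ratio of 2.13, and the log2 fold change was 0.80 (SE 0.16, 95% interval 0.43 to 1.17, limma adjusted p = 0.00908). The ratio within mice was 1.58, 2.07, 1.73 and 3.69, and the exact two-sided permutation p was 0.0286. With the pairing kept, the exact sign-flip test gave p = 0.125.

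The Socs2 values rest on an estimated 50 to 180 fragments per library, fewer than the 210 to 750 of Cish. The call was lost without mouse 3 (0.87, limma adjusted p = 0.0546), without mouse 4 (0.61, limma adjusted p = 0.0505) and with T-cell scaling (0.54, which is 0.86 above the shifted median, limma adjusted p = 0.14). Without the flow-through library of mouse 1 it was 0.82 (limma adjusted p = 0.0136).

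Socs3 (ENSMUSG00000053113, chromosome 11, 117966079 to 117970047, minus strand) encodes the inhibitor of gp130-type receptors and had the highest mean level of the family in both fractions. Its flow-through levels were 25.1, 47.1, 41.5 and 59.7 FPKM and its IL-18Rαhi levels 18.7, 31.4, 26.8 and 35.8 FPKM in mice 1 to 4. The groups overlapped through the flow-through library of mouse 1, which lay below the IL-18Rαhi libraries of mice 2, 3 and 4, while the other 3 flow-through libraries lay above all IL-18Rαhi libraries. The means were 43.4 ± 14.4 and 28.2 ± 7.32 FPKM (SD, n = 4), and the log2 fold change was -0.58 (SE 0.28, 95% interval -1.21 to 0.05, limma adjusted p = 0.149). The exact permutation test of the 70 arrangements gave p = 0.143.

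Within each mouse the IL-18Rαhi level of Socs3 was 0.742, 0.667, 0.647 and 0.599 of the flow-through level, lower in 4 of 4 mice. With the mouse as a block, the SE of the difference went from 0.28 to 0.07, the 95% interval was -0.75 to -0.40, and the gene was called lower (limma adjusted p = 0.00151), as were 22.7% of tested genes in that fit (22.2% were higher). The exact sign-flip test over 4 mice gave p = 0.125, the smallest it allows. Socs3 also passed the test without the flow-through library of mouse 1 (-0.81, limma adjusted p = 0.0294), without mouse 1 in both fractions (-0.63, limma adjusted p = 0.0259) and with T-cell scaling (-0.91, which is -0.58 from the shifted median, limma adjusted p = 0.0308). These settings all act on the same library, which T-cell scaling raised most (scaling factor 0.576, against 0.922 to 1.17 elsewhere). With the block counted, Socs3 passed the test in 4 of 20 alternatives and missed the threshold in 16.

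Socs1 (ENSMUSG00000038037, chromosome 16, 10782240 to 10785536, minus strand) encodes the inhibitor of interferon and common γ-chain cytokine signals. It was at 8.22, 21.2, 15.5 and 23.9 FPKM in the flow-through and 18.6, 20.4, 21.1 and 26.7 FPKM in the IL-18Rαhi libraries of mice 1 to 4. The ranges overlapped, with the flow-through library of mouse 1 far below the rest. The difference was 0.40 (SE 0.29, 95% interval -0.26 to 1.06, limma adjusted p = 0.322), and it was 0.11 without that library. The ratio within mice ran from 0.959 to 2.26, higher in 3 of 4. With the mouse as a block the 95% interval was -0.02 to 0.83 (limma adjusted p = 0.108). A change of either small or moderate size in Socs1 is within these intervals.

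Socs4 to Socs7 did not pass the test in either fit. Socs4 (ENSMUSG00000048379, chromosome 14, 47276931 to 47296102, plus strand) varied least, at 8.56 to 9.60 FPKM in the flow-through and 8.55 to 9.53 FPKM in the IL-18Rαhi libraries. Its difference was 0.00 with a 95% interval of -0.17 to 0.17, the narrowest of the family. Socs7 (ENSMUSG00000038485, chromosome 11, 97362551 to 97398542, plus strand) was at 6.12 to 7.18 and 6.55 to 8.22 FPKM, a difference of 0.09 with an interval of -0.13 to 0.30. Socs6 (ENSMUSG00000056153, chromosome 18, 88665224 to 88927481, minus strand) was at 7.72 to 9.26 and 6.59 to 9.02 FPKM, a difference of -0.08 with an interval of -0.33 to 0.16. For these 3 genes a shift as large as that of Cish lies outside the interval.

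Socs5 (ENSMUSG00000037104, chromosome 17, 87107679 to 87137839, plus strand), which has been linked to IL-4 receptor and growth factor receptor signals, was at 2.36, 3.59, 2.96 and 3.85 FPKM in the flow-through libraries. The IL-18Rαhi libraries of the same mice held 2.19, 2.20, 2.39 and 3.35 FPKM. It was lower in 4 of 4 mice, as were 30.6% of tested genes, and the groups overlapped. The difference was -0.25 (SE 0.16, 95% interval -0.60 to 0.11, limma adjusted p = 0.268), and the adjusted p was 0.115 with the mouse as a block.

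**Figure D2:**
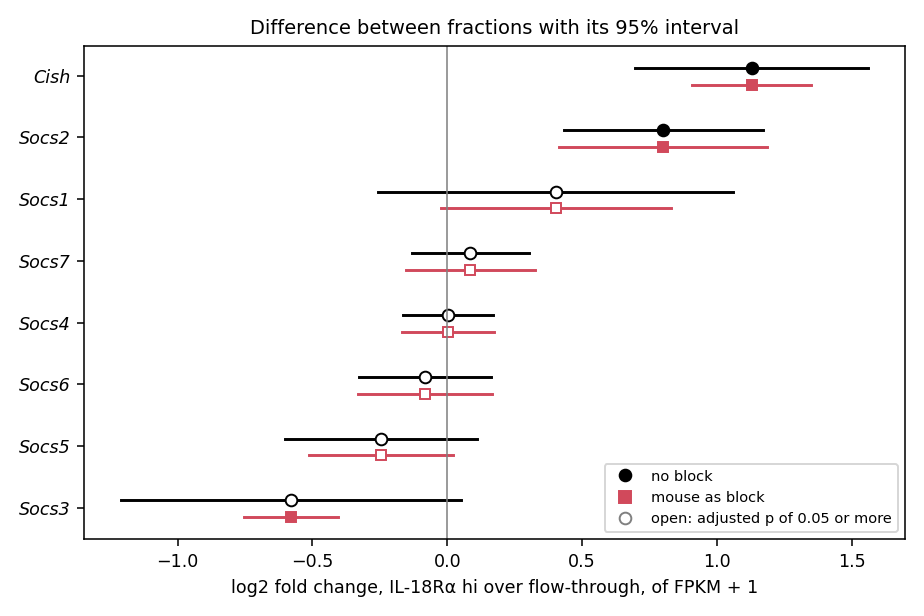
Difference between the fractions for each member on the log2(FPKM + 1) scale, with 95% intervals. Black circles are the fit without a block and red squares the fit with the mouse as a block, and open symbols have an adjusted p of 0.05 or more. Cish (1.13) and Socs2 (0.80) are filled in both fits, and Socs3 (-0.58) is filled only with the block, where its interval narrows to -0.75 to -0.40.

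The order of levels differed between the fractions for Cish and Socs2. In the flow-through it ran, by mean FPKM, from Socs3 through Socs1, Socs4, Socs6, Socs7, Cish and Socs5 to Socs2. The ranges of Socs1 and Socs4, Socs4 and Socs6, Socs7 and Cish, and Socs5 and Socs2 overlapped across mice. Within libraries, Socs4 was above Socs6, Socs7 above Cish and Socs5 above Socs2 in 4 of 4, and Socs1 was above Socs4 in 3 of 4. In the IL-18Rαhi fraction Cish came next after Socs3 and Socs1, with no overlap with Socs1 above it or Socs4 below it. Both gaps were narrow. The lowest Cish level was 9.534 FPKM and the highest Socs4 level 9.526 FPKM, and the highest Cish level was 17.81 FPKM and the lowest Socs1 level 18.62 FPKM. Socs2 stood above Socs5 in 4 of 4 libraries of this fraction with overlapping ranges. There the ranges of Socs3 and Socs1 also overlapped across mice, which they did not in the flow-through, but Socs3 was above Socs1 in 4 of 4 libraries.

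Seen as shares of the family's summed FPKM, which ranged from 67.2 to 120.1 in the flow-through and from 74.3 to 113 in the IL-18Rαhi libraries, Socs3 made up 37.4 to 49.8% and 25.1 to 31.9%. Cish made up 5.30 to 6.81% and 12.8 to 15.7%. The ratio of Cish to Socs3 within a library, chosen after the values were seen and given as a description, was 0.179, 0.114, 0.155 and 0.117 in the flow-through and 0.511, 0.475, 0.521 and 0.498 in the IL-18Rαhi libraries. A ratio within a library does not depend on how libraries are scaled to each other. It shows unequal change of the pair and not which of them changed.

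Receptors that signal through JAKs lie upstream of the family. Of 32 such receptor genes 27 passed the filter, and 8 were higher and 1 lower in the IL-18Rαhi fraction, with a median log2 fold change of 0.22. Il2ra, the high-affinity chain of the IL-2 receptor, averaged 3.57 ± 1.51 FPKM in flow-through and 15.6 ± 4.36 FPKM in IL-18Rαhi libraries (SD, n = 4, log2 fold change 1.90, limma adjusted p = 0.00394). Il9r rose from 6.67 to 22.2 FPKM (1.62, limma adjusted p = 0.00038), and the IL-12 receptor chain Il12rb2 from 3.19 to 10.2 FPKM (1.45, limma adjusted p = 0.00177). These 3 passed the test in all 20 alternatives. Il23r, a partner of the IL-12 receptor β1 chain, was at 0.316 and 2.59 FPKM (1.41, limma adjusted p = 0.00427). It passed the filter only through its IL-18Rαhi level.

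The other higher receptor genes were Il2rb, Il12rb1, Il10ra and Crlf2. Il2rb, the shared β chain of the IL-2 and IL-15 receptors, was at 132 ± 29.1 and 332 ± 9.81 FPKM, while Il2rg (0.37, limma adjusted p = 0.179) and Il7r (0.17, limma adjusted p = 0.603) did not pass the test. The lower receptor gene was Epor, the erythropoietin receptor (44.7 and 11.4 FPKM, -1.95, limma adjusted p = 0.0448). Epor also belongs to the erythroid progenitor markers described below, and it passed the test in only 9 of 20 alternatives. It missed the threshold without the flow-through library of mouse 1, 3 or 4 or the IL-18Rαhi library of mouse 2, 3 or 4 (-2.10 to -1.53). With the mouse as a block 12 receptor genes were higher and 4 lower (Epor, Il4ra, Il6st and Ifngr2), and with T-cell scaling 6 and 2. Without the flow-through library of mouse 1 the lower receptor genes were Il4ra (-0.81, limma adjusted p = 0.00374) and Il6st, which encodes gp130 (-0.61, limma adjusted p = 0.0199). With all libraries their differences were -0.58 and -0.40 (limma adjusted p = 0.0941 and 0.214).

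Among 11 JAK and STAT genes, 2 were higher and 1 was lower. Stat5a, which encodes 1 of the STAT5 proteins that switch on Cish, was lower in the IL-18Rαhi fraction, at 36.6 ± 5.11 and 25.8 ± 0.62 FPKM (-0.48, limma adjusted p = 0.00908), while its close relative Stat5b was at 35.8 and 35.5 FPKM (-0.01, limma adjusted p = 0.916). Stat5a kept its call in 17 of 20 alternatives, and was at -0.81 with T-cell scaling (limma adjusted p = 0.0747). Jak2 (28.2 and 35.2 FPKM, 0.31, limma adjusted p = 0.0188) and Tyk2 (25.7 and 33.7 FPKM, 0.38, limma adjusted p = 0.0208) were higher, each in 12 of 20 alternatives. Jak2 and Tyk2 each missed the threshold without the flow-through library of mouse 3 or the IL-18Rαhi library of mouse 2, 3 or 4 (0.30 to 0.31 and 0.34 to 0.38), and were at -0.02 and 0.05 with T-cell scaling. Both enzymes are used by the IL-12 receptor. With the mouse as a block 5 genes of this list were higher and 1 was lower.

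Of 12 other inhibitors of cytokine signaling, 4 were higher and none lower. They were Pias3, which binds STAT3 (11.8 and 19.0 FPKM, 0.65, limma adjusted p = 0.00135), the phosphatase gene Ptpn1 (36.3 and 53.1 FPKM, 0.54, limma adjusted p = 0.006), the adaptor gene Sh2b3, which restrains JAK2 (18.1 and 25.3 FPKM, 0.47, limma adjusted p = 0.0211), and the ubiquitin ligase gene Cbl (17.1 and 23.9 FPKM, 0.46, limma adjusted p = 0.0366). The list's median was 0.13. Pias3 kept its call in 19 of 20 alternatives and Ptpn1 in 18, but Sh2b3 in 13 and Cbl in 11. Sh2b3 missed the threshold without the flow-through library of mouse 3 (0.45) or the IL-18Rαhi library of mouse 2 (0.43) or 4 (0.43). Cbl missed it without the same libraries or the IL-18Rαhi library of mouse 3 (0.42 to 0.48). None of the 4 passed the test with T-cell scaling, where Usp18 was lower.

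The partners through which SOCS proteins reach the ubiquitin system showed no call. Of 6 genes, the elongin genes Tceb1 and Tceb2, Cul5, Cul2, Rnf7 and Rbx1, all passed the filter, 0 were called by limma without a block, and the median was 0.02. Cul5 was at 12.6 and 10.7 FPKM (-0.21, limma adjusted p = 0.142) and was called lower only with the mouse as a block (limma adjusted p = 0.0448).

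**Figure D3:**
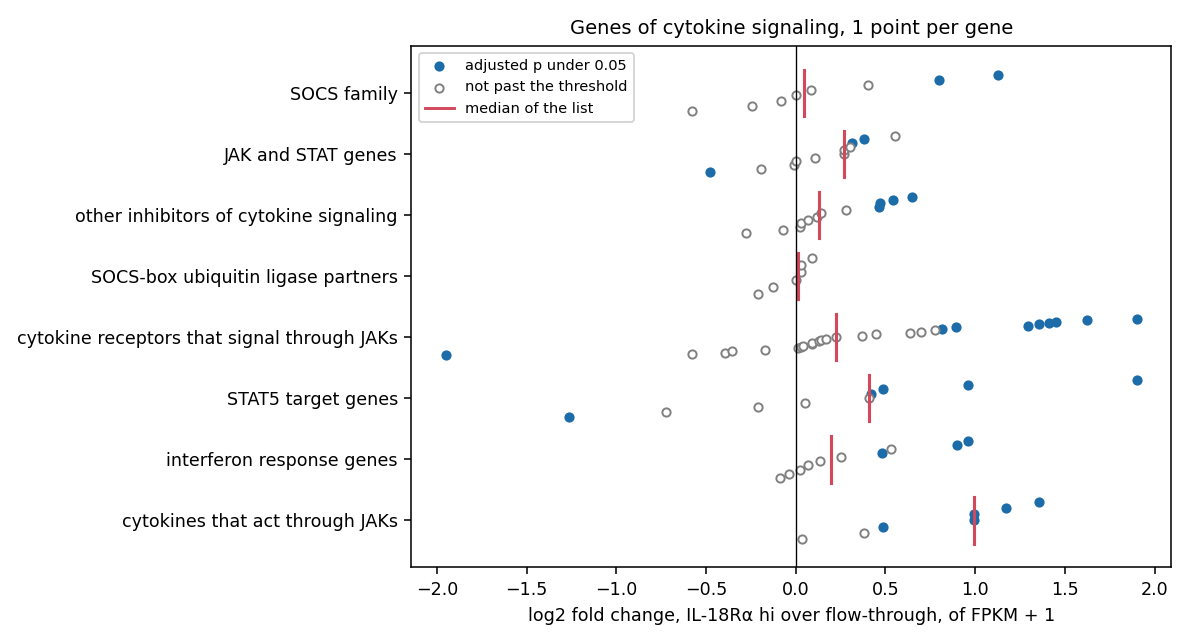
Log2 fold change of FPKM + 1 between the fractions for the SOCS family and 7 lists of cytokine signaling genes, 1 point per tested gene. Filled points passed the limma test, and red lines are list medians. The SOCS family median is 0.04, and receptors reach from -1.95 (Epor) to 1.90 (Il2ra).

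Known STAT5 target genes other than the SOCS genes went in both directions. Of 9 such genes 4 were higher and 1 lower, with a median of 0.41. Besides Il2ra, the higher genes were the survival gene Bcl2l1 (14.0 and 28.0 FPKM, 0.96, limma adjusted p = 0.000363), the cytokine gene Osm (11.2 and 16.1 FPKM, 0.49, limma adjusted p = 0.0216) and the cyclin gene Ccnd3 (178 and 238 FPKM, 0.42, limma adjusted p = 0.0073). The growth regulator Myc was lower, at 102 ± 4.70 and 42.2 ± 3.88 FPKM (-1.27, limma adjusted p = 0.0002). Pim1 was at 73.3 and 95.7 FPKM (0.41, limma adjusted p = 0.27) and was called higher with the mouse as a block (limma adjusted p = 0.00725), where 5 genes of the list were higher and 2 lower. Bcl2l1 and Myc passed the test in all 20 alternatives, Osm in 14 and Ccnd3 in 17. Osm missed the threshold without the IL-18Rαhi library of mouse 2 or 4 (0.43 each). With T-cell scaling 2 genes were higher and 2 lower. The survival gene Bcl2, at 18.1 and 10.1 FPKM (-0.72, limma adjusted p = 0.0683), was lower with the mouse as a block (limma adjusted p = 0.00651), and it and Pim2 were lower without the flow-through library of mouse 1 (-0.97 and -0.44, limma adjusted p = 0.0055 and 0.0339).

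Interferon response genes, whose signals SOCS1 restrains, had 3 of 10 members higher and none lower, with a median of 0.20. With T-cell scaling 1 was higher, Mx1, and the median was -0.12, where that of all tested genes was -0.32. Mx1 was at 9.55 and 18.9 FPKM (0.96, limma adjusted p = 0.0187), Cxcl10 at 5.10 and 10.2 FPKM (0.90, limma adjusted p = 0.0218) and Isg15 at 24.3 and 34.0 FPKM (0.48, limma adjusted p = 0.0221). Each of these calls was lost without the IL-18Rαhi library of mouse 2 or 4, and those of Cxcl10 and Isg15 also without that of mouse 3 (0.87 to 0.96 for Mx1, 0.83 to 0.88 for Cxcl10 and 0.45 to 0.48 for Isg15). Gbp2 was called lower when the flow-through library of mouse 1 was left out (-0.32, limma adjusted p = 0.0206, against -0.09 and 0.768 with it). Irf1 was at 88.3 and 88.0 FPKM (0.02, limma adjusted p = 0.932).

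Among 16 genes of cytokines that act through JAKs, 7 passed the filter and 5 of these were higher (3 with T-cell scaling). Of the higher genes, Lif, Il2 and Csf2 averaged under 1 FPKM in the flow-through and passed the filter only through the IL-18Rαhi fraction. The count is therefore not independent of the filter. Ifng, the effector cytokine of CD8+ T cells, was at 8.86 ± 2.85 and 23.7 ± 4.34 FPKM (1.35, limma adjusted p = 0.00347) and kept its call in all 20 alternatives. Lif was at 0.954 and 3.46 FPKM (1.17, limma adjusted p = 0.0133), Il2 at 0.913 and 2.88 FPKM (1.00, limma adjusted p = 0.00771) and Csf2 at 0.576 and 2.31 FPKM (1.00, limma adjusted p = 0.0351). Osm, named above, was the fifth. The Csf2 call held in 8 of 20 alternatives and was lost without the flow-through library of mouse 1, 3 or 4 or the IL-18Rαhi library of mouse 2, 3 or 4 (0.84 to 1.03). Il9 and Epo were listed at 0 in every library.

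Markers of other cell types moved with the fractions, and their part in the SOCS family differences was not tested. NK-cell markers were higher for 6 of 7 genes and summed to 47.4 to 120.2 FPKM per flow-through library and 147 to 298 FPKM per IL-18Rαhi library. The highest levels in that sum were those of Fcer1g (49.0 and 108 FPKM) and Klrk1 (14.0 and 55.1 FPKM). The count was 4 to 6 with 1 library left out and 4 with T-cell scaling. Markers of CD4 and regulatory T cells were higher for 3 of 4 genes (8.48 to 22.6 and 24.5 to 63.8 FPKM), among them Foxp3, at 2.62 and 11.6 FPKM, and Cd4, at 0.662 and 3.93 FPKM. Cd4 passed the filter only through its IL-18Rαhi level. The γδ T-cell list had 2 of 6 genes higher (68.0 to 96.6 and 92.1 to 195 FPKM). CD8 T-cell identity genes had 0 of 8 called by limma (1337 to 2548 and 2542 to 2724 FPKM), and 1 of 8, Cd2, with the mouse as a block.

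Antigen-presenting and blood-forming cells were also visible. Dendritic-cell markers were higher for 4 of 5 genes (10.1 to 15.8 and 20.4 to 42.7 FPKM), myeloid markers for 4 of 7 (122 to 428 and 390 to 934 FPKM), B-cell markers for 1 of 6 tested (25.4 to 66.3 and 41.9 to 86.9 FPKM) and plasma-cell markers for 1 of 4 (322 to 1283 and 585 to 1534 FPKM). Of the higher genes, Xcr1 (0.688 and 4.75 FPKM) and Adgre1 (0.805 and 1.88 FPKM) passed the filter only through the IL-18Rαhi fraction. Erythroid progenitor markers were lower for 6 of 8 genes, with sums of 844 to 2231 FPKM per flow-through library and 135 to 512 FPKM per IL-18Rαhi library. Of the granulocyte list 0 of 9 genes and of the erythroid list 0 of 5 were called by limma, and their sums overlapped (596 to 3417 and 619 to 3883 FPKM, and 204 to 1055 and 117 to 1146 FPKM). With the mouse as a block the counts were 5 higher for γδ T cells, 2 for B cells, 4 for plasma cells, 6 for myeloid cells, 2 higher and 1 lower for granulocytes, 2 lower for erythroid cells and 8 lower for erythroid progenitors. Libraries were left out in fits without a block. There the γδ T-cell count went from 2 to 1 without the flow-through library of mouse 1, 2 or 3. It was also 1 without the IL-18Rαhi library of mouse 2, 3 or 4. The myeloid count went from 4 to 2 without the flow-through library of mouse 1 or 3 or the IL-18Rαhi library of mouse 2 or 4. For erythroid progenitors it went from 6 to 3 without the flow-through library of mouse 3 or the IL-18Rαhi library of mouse 2 or 4.

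Of the markers of the melanoma itself, 4 of 5 were listed at 0 in every library and the fifth, Pmel, averaged 0.697 and 0.475 FPKM. No other list had a marker at 0 in every library. T-cell scaling does not separate CD8+ T cells from other cells that carry T-cell genes.

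**Figure D4:**
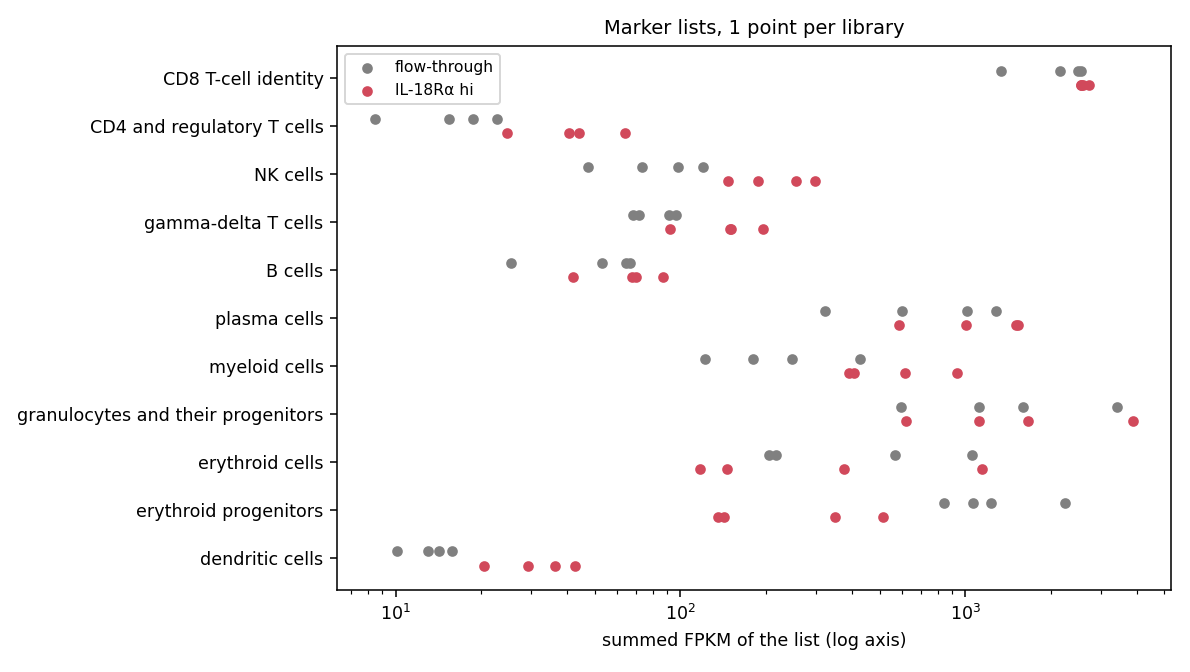
Summed FPKM of each list of cell-type markers on a log axis, 1 point per library, gray for the flow-through and red for the IL-18Rαhi fraction. NK-cell, dendritic-cell and CD4 and regulatory T-cell sums lie higher in the IL-18Rαhi libraries without overlap, and erythroid progenitor sums lie lower without overlap.

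Genes with patterns most like those of the called members were looked up among genes that averaged 5 FPKM or more, by Pearson's r of log2(FPKM + 1) over the 8 libraries, which are pairs from 4 mice. For Cish the first 3 of 9059 genes were Blk (r = 0.992), Ncoa7 (r = 0.992) and H2-Eb1 (r = 0.984). For Socs2 the first 3 of 9060 genes were Sp4, Bmp2k and Szrd1, each with r = 0.948. These values describe the 8 libraries and carry no test, and any gene that differs strongly between the fractions can reach them.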

How the data were processed

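RNA of 8 libraries, the flow-through and the IL-18Rαhi-enriched fraction of 4 mice, was sequenced as stranded 150-base paired ends after poly(A) selection. The deposited values are FPKM, which the authors computed with TopHat and Cufflinks 2.1.1 on mm10 with corrections for multi-mapped reads and fragment bias. Other options were at their defaults, which ignore the strand, and the annotation release is not given in the sources used here. FPKM carry no counts, so depth was estimated from single-transcript genes of low level and no counting interval is given. The table held 47493 genes, numbered up to 47729, so 236 numbers were not used here. GENCODE M21, the source of coordinates, held 98.9% of the identifiers. Sequences are from RefSeq.

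Fractions were compared on log2(FPKM + 1) by limma 3.58.1 (R 4.3.3), using a variance trend and no block, over the 12166 genes that averaged 1 FPKM or more, with Benjamini-Hochberg adjustment at 0.05. A fold change on this scale understates changes of low genes. A gene that averaged under 1 FPKM in the flow-through could pass the filter only through the IL-18Rαhi fraction. Replicate numbers were taken to pair the fractions by mouse. The flow-through is what passed the column that held the IL-18Rαhi cells, but the library titles carry only a number and name no mouse. Deviations from the group means correlated within these pairs (r = 0.66, 0.589, 0.308 and 0.471 for mice 1 to 4). Between different mice r ran from -0.6 to 0.412, and the highest of these was above that of mouse 3. Fits with the mouse as a block, other pseudocounts (0.1 and 0.5), filters (none, and a mean of 5 FPKM), scalings, no variance trend and left-out libraries or mice were alternatives. The test was checked on simulated data with independent libraries, so that check does not cover the pairing by mouse or effects shared across a library. All 8 members are named, and from each list up to 4 genes in each direction past the threshold by size of change, with genes that a count turns on. The genes singled out beyond this were Il2rb, Il2rg, Il7r, Il4ra, Il6st, Ifngr2, Stat5b, Pim1, Pim2, Bcl2, Irf1, Gbp2, Usp18 and Cul5, chosen with their values seen, as were the listings at 0. Members and lists were chosen with earlier results of these data known, so list counts are descriptions.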

Additional observations from a re-analysis of the deposited data

How the results depend on the processing

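Each member was recomputed under up to 20 alternatives (19 for Socs2 and Socs5, which lie below a mean of 5 FPKM), and 141 of the 158 values kept their direction and their side of the threshold. Members called higher went from 2 to 1 with the filter at 5 FPKM, where Socs2 is not tested, and to 1 with T-cell scaling, and ranged from 1 to 2 with a library or mouse left out (without mouse 3 or 4 Socs2 is lost). Members called lower went from 0 to 1 with the mouse as a replicate block and with T-cell scaling, where the member is Socs3, and ranged from 0 to 1 with a library or mouse left out. Among those leave-outs the count was 1 only without the flow-through library of mouse 1 or without mouse 1. Over all tested genes, 1720 were higher and 1664 lower. These counts were 2705 and 2763 with the block, 522 and 927 with T-cell scaling, 1124 to 1802 and 940 to 1781 with 1 library left out, and 1103 and 986 without mouse 2, 452 and 294 without mouse 3, and 857 and 619 without mouse 4. The block changed no other member's call. Differences close to 0 changed sign and were called nowhere: Socs4 was at -0.006 with median-of-ratios scaling, -0.31 with T-cell scaling, -0.022 to 0.029 with 1 library left out and -0.017 without mouse 4, Socs7 at -0.22 with T-cell scaling and -0.01 to 0.15 with one left out, and Socs6 at -0.18 to 0.005 with one left out. T-cell scaling moves the median of all genes to -0.32, so signs near 0 there follow that shift. Of 760 counts of called list genes, 650 were within 1.5 times the main count and 110 were not. No library of a member's group stood apart by Dixon's criterion in 16 groups examined, of which chance would give 0.8. In groups of 4 libraries that criterion has little power, so it does not show that no library differs. Depth is known only as an estimate, and with 4 mice the exact sign-flip test cannot go below p = 0.125.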
